A study of Mus musculus with 6 samples.

Results

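The regions described are the Hand2 binding sites of the mandibular prominence (MNP) that lie deep in gene deserts and overlap no called Gli3 peak. They were chosen from a ChIP-seq peak list by position and overlap: a Hand2 MNP peak was a member when it shared no base with a Gli3 peak of the MNP or of the whole face, when its midpoint lay outside every protein-coding gene body, and when that midpoint was more than 100 kb from the nearest 5′ end of a protein-coding gene (mm10, GENCODE vM21). This left 12029 desert peaks of the 59583 peaks in the Hand2 list, and of 70762 peaks in the 3 lists of the series. ChIP-seq was performed with an anti-FLAG antibody on pooled facial tissue of CD1 mouse embryos at embryonic day 11.5, in 3 groups of 2 replicates (6 samples): Hand2 3XFlagbio MNP, Gli3 3XFlagbio MNP and Gli3 3XFlagbio whole face. In each line the tag sits on the endogenous gene. The names are those of the sample labels, while the study's reagent list calls the Hand2 allele Hand2 3xFlag. The stage is also that of the sample labels, since the series' own design text names E10.5 instead.

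Each list holds the positions of peaks shared by both replicates, with no height, read count or q-value. All 59583 Hand2 entries name calls of both replicates. The depth behind a peak is therefore unknown, no value has an error between embryos, and the tests below count peaks, which share 1 pair of replicates and, within a desert, one locus. The 95% intervals (Wilson) reflect counting error alone.

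Gene deserts are long stretches without protein-coding genes, and many that flank developmental genes hold enhancers that act over long distances. Hand2 is a basic helix-loop-helix (bHLH) TF that patterns the ventral jaw. Such TFs bind DNA as dimers at the E-box, CANNTG, and CAGATG is the form that Hand factors are known to prefer. TALE homeodomain TFs of the Meis and Tgif kind bind TGACAG, homeodomain TFs of the Dlx, Msx and Alx kind bind TAATTA, and Gli factors bind the canonical Gli-binding motif (cGBM), GACCACCC.

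Sequences from 5 deserts next to facial TF genes show how these motifs stand in the middle of the desert peaks. They are 120 bases around the peak midpoint, 5′ to 3′, from the GRCm38 reference, with each copy of CAGATG, of the E-box form CAGCTG and of the TALE motif in capitals. On the other strand the Hand-type E-box reads CATCTG, while the TALE motif there reads CTGTCA. The genes and peaks were chosen after their values were seen, as the member of each desert with the most kinds and then the most copies of these 3 motifs in 120 bases, and they are not typical members.
*Sox9* desert, chr11:111839138-111839257 (+ strand): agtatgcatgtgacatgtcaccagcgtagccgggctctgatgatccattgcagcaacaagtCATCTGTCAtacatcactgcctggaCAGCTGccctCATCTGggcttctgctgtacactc
*Hand2* desert, chr8:56883652-56883771 (+ strand): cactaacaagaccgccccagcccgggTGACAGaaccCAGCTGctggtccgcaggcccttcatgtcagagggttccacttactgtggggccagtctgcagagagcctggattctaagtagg
*Osr1* desert, chr12:10100937-10101056 (+ strand): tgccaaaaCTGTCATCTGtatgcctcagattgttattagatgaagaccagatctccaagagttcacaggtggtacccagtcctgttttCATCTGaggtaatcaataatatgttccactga
*Zeb2* desert, chr2:45223772-45223891 (+ strand): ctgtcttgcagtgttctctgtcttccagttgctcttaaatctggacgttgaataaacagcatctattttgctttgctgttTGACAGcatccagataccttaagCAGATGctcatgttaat
*Nr2f2* desert, chr7:69077578-69077697 (+ strand): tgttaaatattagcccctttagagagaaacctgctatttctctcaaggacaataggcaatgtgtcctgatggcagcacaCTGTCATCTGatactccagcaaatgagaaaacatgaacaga
The peak in the *Sox9* desert held CATCTGTCA, in which a CAGATG and a TGACAG share 3 bases, and the peaks of the *Osr1* and *Nr2f2* deserts held CTGTCATCTG, in which they share 2. The *Hand2* desert peak held no CAGATG, but a TGACAG and a CAGCTG 4 bases apart. These peaks lay 943 kb from the 5′ end of *Sox9*, 437 kb from that of *Hand2*, 531 kb from *Osr1*, 106 kb from *Zeb2* and 1290 kb from *Nr2f2*. Except at *Zeb2*, the start of another gene was nearer. It lay at 773 kb in the *Sox9* desert, 333 kb in that of *Hand2*, 269 kb at *Osr1* and 328 kb at *Nr2f2*. On the other side, these gaps were bounded by *Kcnj2*, *Fbxo8*, *Nt5c1b* and *Arrdc4* in the same order.

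E-boxes were frequent in the middle of the desert peaks, and the Hand-type E-box CAGATG was the most frequent of the E-box forms listed. The search on both strands counts CAGATG also where it reads CATCTG. Forms such as CAGCTG read the same on each strand, so these shares are not like for like. In the middle 200 bp, CAGATG was present in 31.6% of the 12029 desert peaks (30.7% to 32.4%) and any CANNTG in 78.2% (77.4% to 78.9%). CAGCTG, the form bound by MyoD and by E proteins such as Tcf12, was present in 18.4%, and the TALE motif TGACAG in 24.1%. At least 1 of these 3 motifs was present in 57.7% of desert peaks, and 21.8% held no E-box of any form. In the flanks described below, windows of 200 bp outside any peak, the same shares were 30.7% and 34.3%. Most members with a CAGATG had 1 copy: 8233 desert peaks had none, 3129 had 1, 583 had 2 and 76 had 3, while 8 had 4 or more.

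Copies of these motifs were concentrated at the midpoint of the desert peaks. Within 50 bp of the midpoint, CAGATG averaged 110 copies per 1000 desert peaks in 50 bp, compared to 41.1 between 500 and 1000 bp away, a ratio of 2.68. The same ratio was 2.92 for CAGCTG and 2.16 for TGACAG. In Hand2-only intergenic peaks near genes the ratios were 2.44 for CAGATG, 2.75 for CAGCTG and 2.03 for TGACAG. The cGBM showed no such rise, with 0.789 copies per 1000 desert peaks at the midpoint and 0.981 farther out. The midpoint value rests on 9 and 10 copies in the bins on either side of it. The rule had left out peaks that touch Gli3, so this describes Hand2-only peaks and not all Hand2 peaks.

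**Figure D1:**
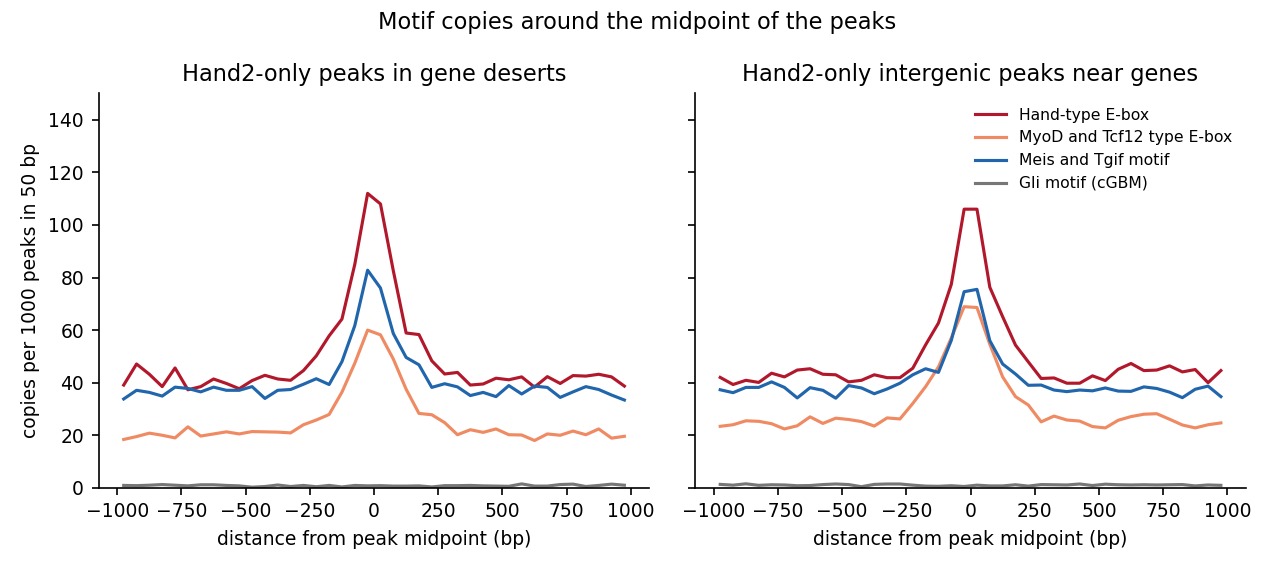
Copies per 1000 peaks in bins of 50 bp (vertical axis) of the Hand-type E-box, the MyoD and Tcf12 type E-box, the Meis and Tgif motif and the cGBM, by distance from the peak midpoint in bp (horizontal axis), for the 12029 gene-desert peaks (left) and 13708 intergenic peaks near genes (right). The first 3 motifs rise at the midpoint in both panels, the Hand-type E-box to a mean of 110 in the 2 middle bins of desert peaks, and the cGBM stays near 1 throughout. Peaks that touch Gli3 were left out of both panels by the rule.

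Each desert peak was next compared to its own neighbourhood, a window of 200 bp centred 2 kb to the right that touched no peak of any list (11521 pairs). CAGATG was present in 31.7% of these desert peaks, compared to 14.8% of their flanks (14.1% to 15.4%). Pairs with CAGATG in the peak alone were 2.69 times as frequent as pairs with it in the flank alone (exact McNemar test, two-sided, Benjamini-Hochberg adjusted p = 7.3e-201). CAGCTG was present in 18.5% of desert peaks and 7.28% of flanks (adjusted p = 6.8e-142, exact), and TGACAG in 24.1% of desert peaks and 13.3% of flanks (adjusted p = 8.4e-99, exact). The same ratio of pairs was 2.91 for CAGCTG and 2.11 for TGACAG, so it was higher for CAGCTG than for CAGATG. Any CANNTG was present in 78.3% of desert peaks and 65.7% of flanks (exact McNemar adjusted p = 7.1e-100). Across all 2080 6-mers and 15 longer or gapped motifs, 67.6% were called, 38.5% as more frequent and 29.1% as less frequent in desert peaks than in flanks, so a call alone sets no motif apart, and CAGATG had the smallest p of the 2095. Desert peaks had a median GC content of 44.5% in this window, compared to 42.0% in the flanks, and a repeat-masked midpoint in 11.9%, compared to 27.0% of flanks. The 1946 pairs whose GC content differed by at most 2 points were an alternative added after seeing the data. In them, CAGATG was present in 31.9% of desert peaks and 15.7% of flanks (ratio 2.47). There, CAGCTG and TGACAG kept their calls too (ratios 2.27 and 1.97). Several other motifs lost theirs in these pairs, as given with each.

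Other E-box forms stood much closer to their flanks. CACATG was present in 18.4% of desert peaks and 16.1% of flanks (exact adjusted p = 1.9e-05), CATATG in 7.23% and 6.49% (0.044) and CAACTG in 11.2% and 9.83% (0.0021). CAAATG with 17.0% in peaks and 16.3% in flanks, CAAGTG with 11.6% and 11.4%, the Snail and Zeb type CACCTG with 11.6% and 11.2% and the Myc and Usf type CACGTG with 2.53% and 2.14% did not pass the test (adjusted p = 0.17, 0.74, 0.36 and 0.08, exact McNemar). The call of CATATG ended with flanks on the left (exact adjusted p = 0.69) or 5 kb away (0.22), in the middle 100 bp (0.11), with 1 peak per desert (0.97) and in GC-matched pairs (0.079). That of CAACTG ended with 1 peak per desert (0.83), under 50% masking (0.23) and in GC-matched pairs (0.98), and that of CACATG with 1 peak per desert (0.62), all by the exact test. Of the 10 features with the smallest p toward desert peaks, 4 were the E-boxes and TALE motif already given. The others were ATCTGG with 22.2% in desert peaks and 10.4% in flanks, AAACAG with 30.4% and 17.0%, CCAGAC with 19.3% and 9.08%, AGCCAG with 26.4% and 14.8%, GCAGGC with 17.8% and 8.43% and CCAGGC with 21.3% and 11.2%. Read from the other strand, ATCTGG is the start of a CAGATG with a C before it. The 10 toward flanks were rich in A and T. CATATA was present in 6.21% of desert peaks and 13.7% of flanks, ATATAT in 3.98% and 9.98%, TATATA in 3.56% and 9.1%, AATATA in 9.7% and 16.6% and ATATAG in 5.01% and 10.4%, and the others were ATATAA with 10.1% and 16.9%, TAGATA with 4.93% and 10.1%, AAATAT with 15.9% and 23.7%, ATATTA with 8.15% and 14.2% and AAGATA with 8.2% and 14.2%.

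Among motifs of other TF families, 17 of the 36 listed were more frequent in desert peaks than in their flanks, E-boxes included, and 2 were less frequent. The AP-2 motif GCCNNNGGC, bound by Tfap2 factors of the neural crest, was present in 4.28% of desert peaks and 2.41% of flanks (exact adjusted p = 2.8e-14). Its ratio of 1.8 was 1.2 in GC-matched pairs, where the call ended (0.57), as it did with 1 peak per desert (0.085). The forkhead motif TGTTTAC was present in 4.89% and 3.3% (4.3e-09), the Tead motif GGAATG in 15.2% and 11.7% (4.6e-14), the Tcf and Lef motif CTTTGAT in 5.04% and 3.74% (4.2e-06) and the homeobox motif TAATTG in 13% and 10% (1.2e-11). The homeobox motif TAATTA was present in 8.52% of desert peaks and 7.64% of flanks (0.023). Its ratio was 1.13 as reported and 2.0 in GC-matched pairs (exact adjusted p = 4.2e-06), while the call ended in the middle 100 bp (0.078), with 1 peak per desert (0.13) and under 50% masking (0.23). The Ets motif CGGAAG, the Sp and Klf motif GGGCGG and the Ctcf core AGGGGGC were each in under 3% of desert peaks and also passed. All 3 lost the call in GC-matched pairs (exact adjusted p = 0.78, 0.72 and 1.00) and with 1 peak per desert (0.23, 0.19 and 0.81), and CGGAAG and AGGGGGC also in the middle 100 bp (0.072 and 0.091). The Tead motif, the Tcf and Lef motif and TAATTG lost it with 1 peak per desert (0.065, 0.17 and 0.62). That setting left 1416 pairs in place of 11521. The ratio was then 1.32 for the Tead motif (1.35 in all pairs), 1.47 for Tcf and Lef (1.37) and 1.1 for TAATTG (1.34). It was 1.7 for AP-2 (1.8), 1.32 for TAATTA (1.13), 1.62 for CGGAAG (1.4), 1.67 for GGGCGG (1.49) and 1.21 for AGGGGGC (1.38).

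The Gata motif AGATAA was less frequent in desert peaks, with 10.2% in peaks and 14.1% in flanks (exact adjusted p = 2.5e-18), and so was the Sox motif ACAATG, with 11.4% and 13.4% (1.8e-05). Both lost the call in GC-matched pairs, where the ratio of AGATAA was 0.945 (exact adjusted p = 0.79), against 0.694 in all pairs, and that of ACAATG 0.774 (0.06). The second Sox motif ACAAAG, shared with Tcf, the Runx motif TGTGGT, the nuclear receptor motif AGGTCA, the AP-1 motif TGANTCA, the T-box motif GGTGTGA, the Pitx and Gsc motif TAATCC, the CRE TGACGTCA, the Pbx and Hox motif TGATTGAT and the gapped Mef2, Nfi and Ebf motifs did not pass (adjusted p between 0.12 and 0.91, exact McNemar). For the cGBM GACCACCC, desert peaks had 0.321% and flanks 0.382% (0.56), and for GACCNCCC 1.12% and 1.19% (0.71). Peaks that touch Gli3 had been left out by the rule, so these Gli motif shares describe Hand2-only peaks.

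The bases beside CAGATG differed between desert peaks and flanks. Of 4520 copies in the middle of desert peaks, 36.3% had a C before the motif, compared to 23.0% of 1822 copies in flanks, and 12.8% had a T, compared to 22.7%. After the motif, T made up 37.6% in desert peaks and 28.4% in flanks, and A 16.9% and 26.1%. As whole 8-mers, CCAGATGT was found 651 times in paired desert peaks and 116 times in flanks, 5.61 times as often, while TCAGATGG was found 95 and 90 times, 1.06 times as often. All 16 combinations fell between these values, in the order CCAGATGT, CCAGATGG, CCAGATGC and ACAGATGT at the top. Near genes, C stood before 40% of 4868 copies and T after 35.1%. These 8-mers were counted after the data had been seen and carry no test.

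**Figure D2:**
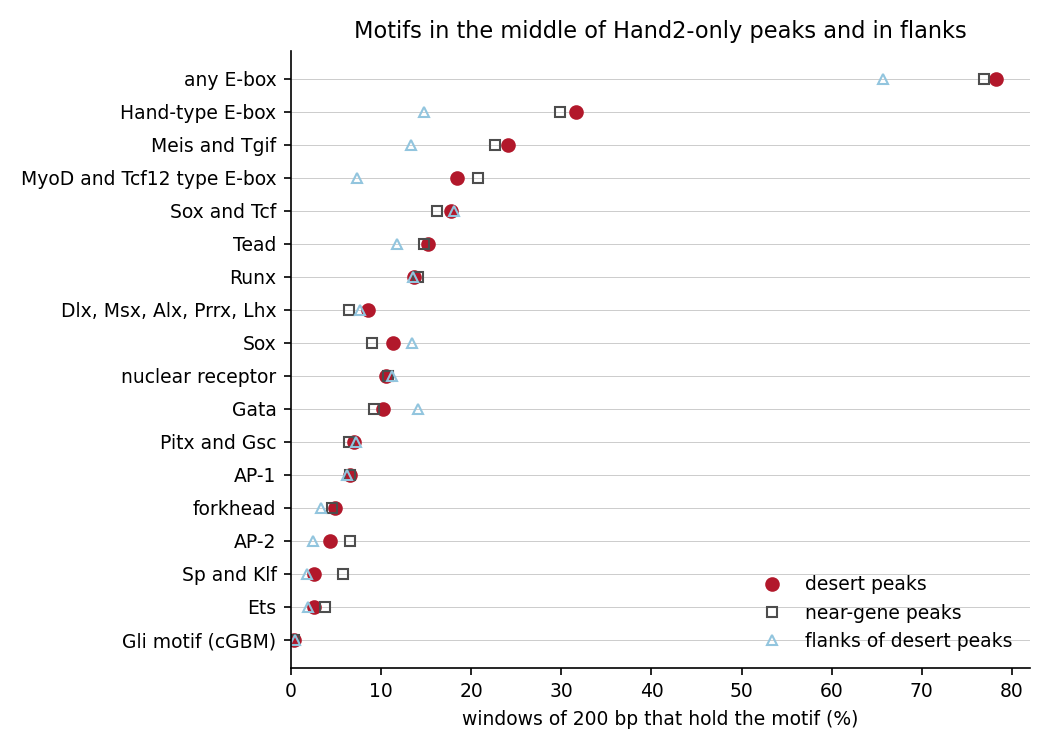
Share of 200 bp windows that hold each motif (horizontal axis, %) in the 12029 desert peaks (filled red circles), the 13708 intergenic peaks near genes (open squares) and the flanks of desert peaks (open triangles, 11521 windows), with motifs named by the TFs that bind them. Desert peaks stand apart from flanks at the Hand-type E-box (31.6% and 14.8%), and lie close to near-gene peaks (29.9%).

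Hand2-only peaks between genes but near them, 13708 intergenic peaks from 1 to 100 kb of a protein-coding 5′ end, were the closest comparison. CAGATG was present in 31.6% of desert peaks and 29.9% of near-gene peaks (29.1% to 30.6%), a difference of 1.69 points. With GC content held in 10 strata, the odds ratio was 1.1 (Cochran-Mantel-Haenszel test, Benjamini-Hochberg adjusted p = 0.03 over 2095 features, n = 12029 and 13708 peaks). Over the 10 alternatives tried, its odds ratio lay between 1.07 and 1.11 and its adjusted p between 0.0026 and 0.69 (Cochran-Mantel-Haenszel, or Fisher's exact test without strata), and 5 of them ended the call, among them the limit of 200 kb (adjusted p = 0.23) and 1 peak per desert (0.69, 1448 peaks). CANNTG passed with 78.2% in desert and 76.9% in near-gene peaks (odds ratio 1.1, Cochran-Mantel-Haenszel adjusted p = 0.038, n = 12029 and 13708 peaks), and TGACAG with 24.1% and 22.6% (1.12, 0.017). Besides 1 peak per desert, the call of CANNTG ended with the limit of 200 kb (0.34), with Gli3 peaks left out within 1 kb (0.057), under 50% masking (0.075) and in wide peaks (0.20), and that of TGACAG with the limit of 50 kb (0.055), in the middle 100 bp (0.10) and in wide peaks (0.26). CAGCTG was present in 18.4% of desert and 20.8% of near-gene peaks. Its odds ratio was 1.06 with GC strata (adjusted p = 0.29) and 0.863 without them (Fisher's exact test, adjusted p = 1.3e-05), so its direction turned with the handling of GC content.

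Of the 2095 features, 4.44% were called between desert and near-gene peaks, 2.15% as more frequent in desert peaks and 2.29% as less frequent (45 and 48). With 1 peak per desert, 0 passed the Cochran-Mantel-Haenszel test, with 162 features at an unadjusted p under 0.05. The smallest p toward desert peaks was that of CTGACA, which shares 5 bases with the TALE motif, present in 21.9% of desert and 19.6% of near-gene peaks (odds ratio 1.18, adjusted p = 1.5e-04, n = 12029 and 13708 peaks). It was followed by CAGCAG, by TGCCAA with 12.4% in desert and 10.9% in near-gene peaks, CAGTGG with 13.6% and 13.3%, ATGAAA with 21.6% and 16.4%, AAATTG with 14.4% and 10.2%, ATGAAT with 12.1% and 8.73%, GCTGCA with 16.5% and 17.4%, TGAAAA with 23.0% and 17.6% and AGCAGA with 27.8% and 27.1%, at odds ratios between 1.11 and 1.18. CAGCAG was in 26% of desert peaks and 27.8% of near-gene peaks, so its higher odds (1.15, adjusted p = 0.0013, n = 12029 and 13708 peaks) were seen within GC strata, and the odds ratio was 0.912 without them. Its call ended with the limit of 200 kb (0.20) and in wide peaks (0.10). GCTGCA likewise had the lower plain share in desert peaks. The Sox motif ACAATG was also more frequent, in 11.3% of desert and 8.94% of near-gene peaks (1.16, 0.024), but this call ended with limits of 50 kb (0.31) and 200 kb (0.072), in the middle 100 bp (0.15), under 50% masking (0.054) and in wide peaks (0.51).

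The features less frequent in desert peaks were mainly those with a CG dinucleotide, which made up 30 of the 48 called lower, none of the 45 called higher and 605 of all 2095. The Sp and Klf motif GGGCGG was present in 2.52% of desert peaks and 5.72% of near-gene peaks (odds ratio 0.74, adjusted p = 0.0072, n = 12029 and 13708 peaks). Its call ended with the limit of 200 kb (0.10) and in wide peaks (0.14), and without GC strata its odds ratio was 0.426. GCGCCC was in 1.17% and 3.01%, CGCCCC in 2.25% and 5.1%, AGGGCG in 1.68% and 3.78%, GGCGGA in 1.4% and 3.16%, and AGCGCC in 2.07% and 4.06%. Runs of A were lower too within GC strata, with AAAAAA at an odds ratio of 0.808 (adjusted p = 5.4e-06, n = 12029 and 13708 peaks), although its plain share was 17.3% in desert and 15.5% in near-gene peaks and its odds ratio without strata was 1.15. AAAAAG with 17.7% in desert and 16.6% in near-gene peaks, CAAAAA with 14.3% and 13.3% and ACACAC with 13.8% and 15.7% completed the 10 with the smallest p, the AAAAAG and CAAAAA features being lower within GC strata but not in plain share. TAATTA was in 8.55% and 6.37% (1.08, 0.34), and did not pass.

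Arrangements of CAGATG with a second motif were rare in desert peaks. A TAATTA within 20 bp of a CAGATG was counted 77 times in desert peaks, 70 times in near-gene peaks and 20 times in flanks, spread over 41 combinations of side and distance. The most frequent had TAATTA 4 bp before CAGATG, 9 times in desert peaks, 5 times in near-gene peaks and 0 times in flanks, while the next arrangement was counted 5 times in desert peaks. The 5 of them that come first in chromosome order are shown, 40 bases each from GRCm38 on the strand that reads CAGATG, with both motifs in capitals.
*Plekhb2*–*Hs6st1* desert, chr1:35580211-35580250 (+ strand): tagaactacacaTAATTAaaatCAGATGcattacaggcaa
*Grik3*–*Csf3r* desert, chr4:125764074-125764113 (- strand): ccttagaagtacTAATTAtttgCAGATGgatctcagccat
*4933402N22Rik*–*Sema3d* desert, chr5:12093912-12093951 (+ strand): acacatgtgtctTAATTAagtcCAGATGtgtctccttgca
*Bet1*–*Col1a2* desert, chr6:4209763-4209802 (- strand): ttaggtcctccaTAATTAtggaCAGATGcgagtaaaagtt
*Nucb2*–*Xylt1* desert, chr7:116972645-116972684 (+ strand): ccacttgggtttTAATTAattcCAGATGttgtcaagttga
The 4 bases between the motifs differed in each of these 5 peaks. The peak in the *Bet1*–*Col1a2* desert lay 123 kb from the nearest gene start, which is not that of *Col1a2*. No desert peak next to *Col1a2*, which encodes a chain of the main bone collagen, lay closer than 215 kb to its 5′ end. The other peaks shown lay between 176 and 488 kb from the nearest gene start. For CAGATG with TGACAG, an arrangement chosen after the data had been seen, TGACAG stood 4 bp before CAGATG on the same strand 12 times in desert peaks, 16 times in near-gene peaks and 0 times in flanks. For 2 copies of CAGATG, a tandem with 5 bp between them came first, 12 times in desert peaks, 22 times in near-gene peaks and 2 times in flanks. CAGATG and TGACAG also overlapped: TGACAGATG was in 92 desert peaks (0.765%), 100 near-gene peaks (0.73%) and 16 flanks (0.139%), and CAGATGACAG in 33 desert peaks, 36 near-gene peaks and 14 flanks.

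The desert peaks with the most CAGATG in their middle 200 bp were of several kinds. The highest held 11 copies, each 15 bp from the next, in the *Cdh8*–*Cdh11* desert between 2 cadherin genes, and none of its window was masked as repeat. The second, between *Bbs9* and *Bmper*, held 6 copies, 4 of the steps being 6 bp. The next, between *Gjb5* and *CK137956*, held 5 copies at uneven steps of 21, 36, 25 and 45 bp. The first member with 4 copies lay between *Nr5a2* and *Ptprc*. The *Cdh8*–*Cdh11* and *Gjb5*–*CK137956* peaks are shown to set a repeat beside scattered E-boxes, as 120 bases around the midpoint with CAGATG on either strand in capitals.
*Cdh8*–*Cdh11* desert, chr8:99528727-99528846 (+ strand): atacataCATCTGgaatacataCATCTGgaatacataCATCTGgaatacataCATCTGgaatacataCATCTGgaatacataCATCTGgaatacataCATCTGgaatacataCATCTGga
*Gjb5*–*CK137956* desert, chr4:127562781-127562900 (+ strand): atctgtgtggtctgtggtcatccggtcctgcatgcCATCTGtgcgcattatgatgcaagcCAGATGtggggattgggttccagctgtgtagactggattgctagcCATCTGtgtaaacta

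Desert peaks were poorer in GC than other Hand2-only peaks, while their difference in width did not pass the test. Their median width was 438 bp (quartiles 341 and 604 bp), with 435 bp near genes and 437 bp inside gene bodies. Peaks wider than the median of all Hand2 peaks made up 47.2% of desert peaks (46.3% to 48.1%), 46.7% of near-gene peaks and 47.1% of gene-body peaks (Fisher's exact test, two-sided, adjusted over 10 tests, p = 0.48 and 0.84). With 1 peak per desert, 41.6% were wider than the median, 5.04 points under near-gene peaks and 5.43 points under gene-body peaks (Fisher's exact test, adjusted p = 3.6e-04 and 1.0e-04). Several calls of 1 replicate merged into 1 peak in 8.56% of desert peaks in replicate 1 and 7.32% in replicate 2, with 8.63% and 7.13% near genes. GC content above the median of all Hand2 peaks was found in 28.2% of desert peaks (27.4% to 29.0%), 50.1% of near-gene peaks and 47.1% of gene-body peaks (Fisher's exact test, adjusted p = 5.8e-284 and 6.4e-269). The GC content of each kind of territory as a whole was not measured.

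Desert peaks stood somewhat farther from other Hand2 peaks. Another Hand2 peak lay within 10 kb of 52.0% of desert peaks (51.1% to 52.9%), 58.0% of near-gene peaks and 61% of gene-body peaks (adjusted p = 4.7e-22 and 4.3e-60, Fisher's exact test), and the median distance to the next Hand2 peak was 9221 bp, 7570 bp and 6654.5 bp in the same order. With 1 peak per desert, the one nearest to the middle of its gap, 30.9% had another Hand2 peak within 10 kb. A repeat-masked midpoint was found in 11.7% of desert peaks, 13.1% of near-gene peaks (Fisher's exact test, adjusted p = 0.0011) and 10.7% of gene-body peaks (0.0024). The midpoint lay inside an annotated lncRNA gene in 15.1% of desert peaks, 13.5% of near-gene peaks (2.5e-04) and 4.64% of gene-body peaks (2.0e-244). Near a lncRNA 5′ end the order was different: 1.81% of desert peaks were within 1 kb of one, compared to 2.92% of near-gene peaks (1.2e-08) and 1.22% of gene-body peaks (1.9e-05). The difference from near-gene peaks in repeats and in lncRNA bodies did not pass with a limit of 200 kb or with 1 peak per desert. The lncRNA genes counted include the intergenic class, and protein-coding bodies set the groups. The lncRNA comparison with gene-body peaks therefore depends in part on the rule. How much of each kind of territory lies in lncRNA genes was not measured.

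**Figure D3:**
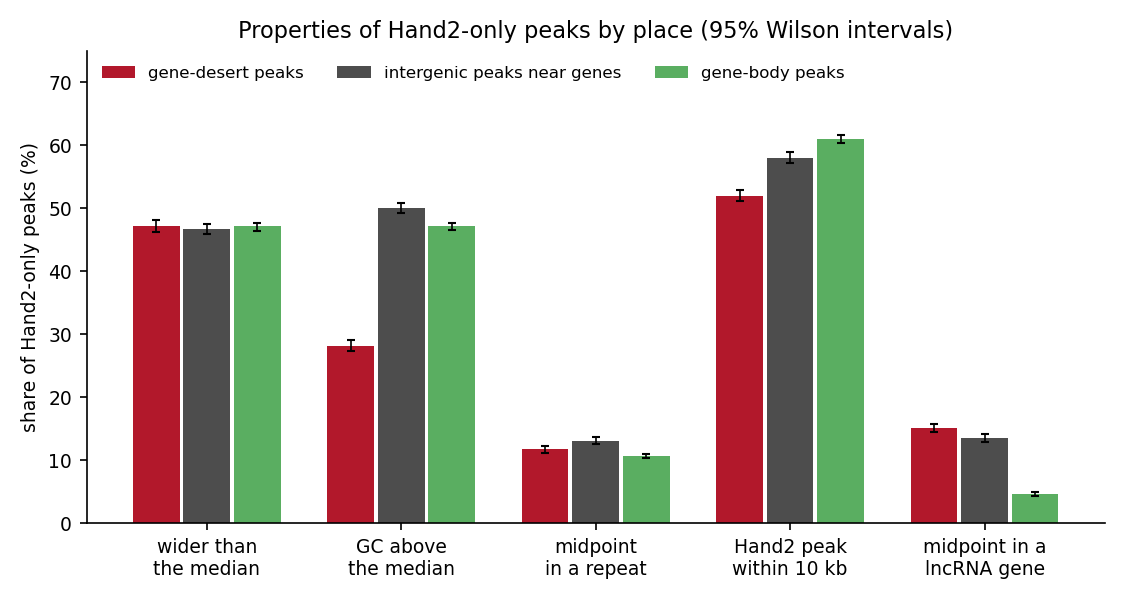
Share of Hand2-only peaks (vertical axis, %) with each of 5 properties in gene deserts (red, 12029 peaks), between genes near a gene start (dark grey, 13708 peaks) and inside gene bodies (green, 24714 peaks). Bars start at 0 and error bars are 95% Wilson intervals. GC content above the median separates the desert peaks most, with 28.2% in deserts and 50.1% near genes.

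By rule, position set the members, so their places are described without a test. Stretches outside protein-coding genes and over 100 kb from a protein-coding start made up 869 Mb of known bases, or 32.8% of the genome, and held 20.2% of all Hand2 peaks as members. That is 13.8 desert peaks per Mb, compared to 19 Hand2-only peaks per Mb between genes near a start, 24.3 inside gene bodies and 101 at promoters. The desert total includes 59.6 Mb of the Y chromosome, with 3 members. The median distance of a desert peak to the nearest gene start was 239 kb (quartiles 155 and 409 kb). Between 100 and 200 kb lay 4828 members, between 200 and 500 kb 5105, between 500 and 1000 kb 1695, and beyond 1000 kb 401. The members just inside the limit lay 100010, 100011 and 100012 bp from a start, in the gaps *Gm10192*–*E130114P18Rik*, *Rps24*–*Zmiz1* and *Pcp4*–*Dscam*. The peaks just outside it lay at 100000, 99994 and 99970 bp, in the gaps *Ccnd2*–*Parp11*, *4932414N04Rik*–*Cers6* and *Bbs9*–*Bmper*. The 3 members farthest from a start, at 2640208, 2411997 and 2326357 bp, were all in the desert between the protocadherin genes *Pcdh20* and *Pcdh9*, and none held a CAGATG in its middle 200 bp. Members were sparse on the X chromosome, with 3.2 per Mb of desert, compared to 11.7 (chromosome 15) to 21.8 (chromosome 13) on autosomes.

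A small share of Hand2 peaks touched Gli3 in deserts, near genes and inside gene bodies alike. The rule used this overlap, which is therefore only a description. Of 12556 Hand2 peaks in deserts, 527 (4.2%) shared a base with a Gli3 peak and were left out, compared to 5.45% near genes, 5.38% inside gene bodies and 34.8% at promoters. Deserts held 21.1% of all Hand2 MNP peaks, 6.9% of 5424 Gli3 MNP peaks and 17.2% of 5752 Gli3 whole face peaks on the assembled chromosomes. The Gli3 peaks in deserts were thus only 374 (MNP) and 992 (whole face), which limits how many Hand2 peaks there could touch one.

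Members were found in 1448 of 2161 gaps between protein-coding genes that contain desert bases, with a median of 4 in those gaps, and 70.5% of them lay in the 403 gaps with 10 or more. The 10 gaps with the most held 677 members (5.63%). First was the gap between *Slc4a3*, an anion exchanger gene, and *Epha4*, an ephrin receptor gene (chr1:75562173-77367184), with 99 members in 1.72 Mb of desert. Between *Ttll7* and the latrophilin gene *Adgrl2* (chr3:146984010-148815582) there were 78, and between *Zfp608* and *Gramd3* 73. *Sel1l* and *Flrt2*, a gene of a cell adhesion protein, bounded 71 members, and *Zeb2*, a zinc finger TF of neural crest cells, and the activin receptor gene *Acvr2a* bounded 70. *Epha7*–*Map3k7* held 61, *Ubash3b*–*Sorl1* 58, *Kcnj2*–*Sox9* 57, *Fat4*–*Intu* 57 and *Bcl11a*–*5730522E02Rik* 53.

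Long deserts with many members were not the densest. Among gaps with at least 10 members, *Hrh1*–*Atg7* had 13 members in 0.0452 Mb of desert (288 per Mb), *Tpm1*–*Tln2* 10 (148 per Mb), *Haao*–*Zfp36l2* 19 (136 per Mb), *Ackr3*–*Cops8* 27 (136 per Mb) and *Sulf2*–*Prex1* 39 (126 per Mb). The 10 gaps with the most members ran between 19.5 per Mb (*Sel1l*–*Flrt2*) and 82.5 per Mb (*Ubash3b*–*Sorl1*). Over the 226 gaps with at least 1 Mb of desert outside the Y chromosome, the median was 6.12 members per Mb (quartiles 2.78 and 12.8).

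**Figure D4:**
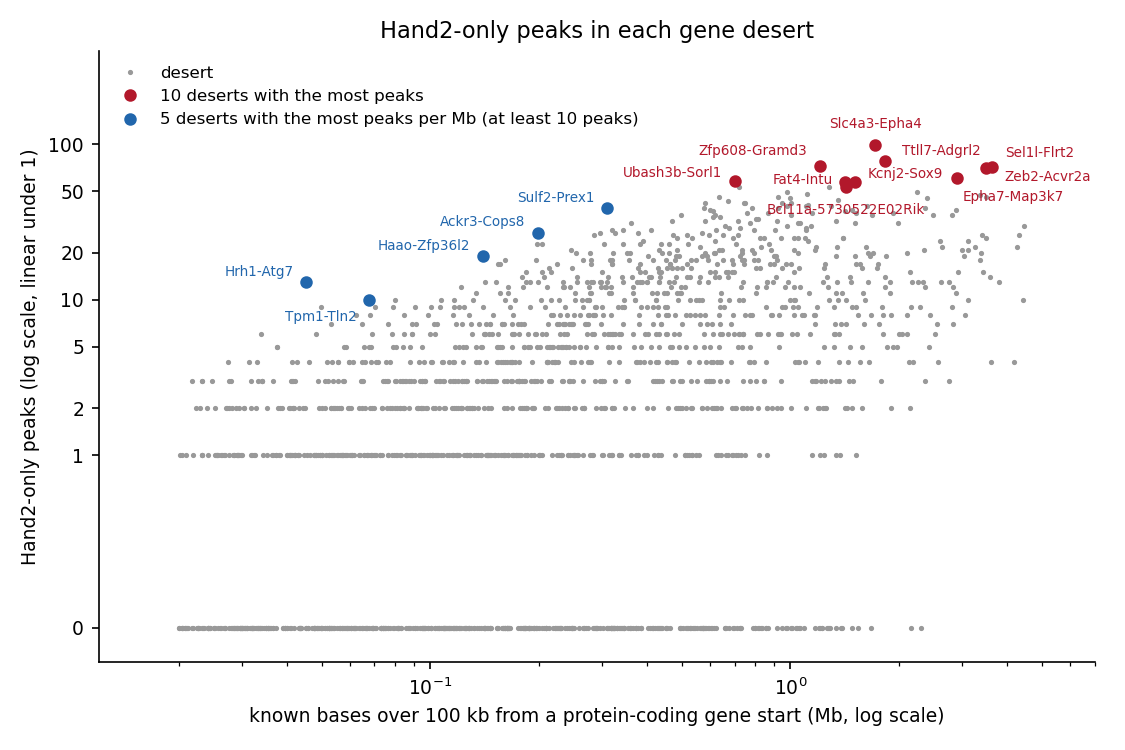
Hand2-only peaks in each gap between protein-coding genes (vertical axis, log scale, linear under 1) by the length of its desert, counted as known bases over 100 kb from a gene start (horizontal axis, Mb, log scale, gaps over 0.02 Mb). Red marks the 10 gaps with the most peaks, up to 99 at Slc4a3-Epha4, and blue the 5 with the most per Mb, up to 288 per Mb at Hrh1-Atg7, and many gaps of similar length lie at 0.

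The genes on either side of each desert peak were then read against 8 gene lists, written with earlier results of these data known and therefore given as counts. Over all 21911 protein-coding gene symbols, 11.3% (2467) were next to a desert peak, 71.2% of the 3463 genes that border a desert at all. Deserts as a whole, the Y chromosome included, held 13.8 members per Mb. Fewer members next to a gene and a shorter desert cannot be told apart in a count, so the density is given beside it.

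Of 54 jaw and facial patterning TFs, 31 (57.4%) were next to a desert peak, 31 of the 32 that border a desert, at 29.7 members per Mb of their deserts. The orphan nuclear receptor gene *Nr2f2* (chr7:70351944-70366735) was next to 76 members, 39 upstream and 37 downstream, between 103 and 1450 kb from its start. *Zeb2* was next to 70, all upstream and up to 3580 kb away. *Osr1*, a zinc finger TF of the jaw and tongue mesenchyme (chr12:9570116-9581500), was next to 52 members, 38 of them downstream, and the TALE gene *Meis1* to 39. *Hand2* itself (chr8:57320983-57324633) was next to 27, all upstream, between 172 and 669 kb, of which 5 held a CAGATG in the middle 200 bp. For *Nr2f2* that was 16 of 76 and for *Zeb2* 17 of 70, while the share over all desert peaks was 31.6%. For *Msx2*, a homeobox TF of the jaw and its bone, it was 14 of 23, and for *Irx5* 1 of 22. The last 2 genes were picked with these values in view.

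Among 17 cartilage genes 6 were next to a desert peak, and the TF genes led them: *Sox9* (chr11:112782224-112787760), the main TF gene of cartilage formation, was next to 71 members, 57 upstream and 14 downstream, up to 1570 kb away, of which 19 held CAGATG. Its partners *Sox6* and *Sox5* were next to 28 and 16, and *Matn1*, a matrix gene, to 17. Of 18 bone genes 8 were next to a member, with 30 at the growth factor gene *Bmp2*, 23 at *Msx2*, 21 at *Mef2c* and 14 at *Runx2*, the main TF gene of bone formation. Those at *Bmp2* were 14 upstream and 16 downstream, between 102 and 899 kb. Of 19 branchial and tongue muscle genes 6 were next to a member, among them *Eya1* with 34, *Isl1* with 28 and *Msc* with 21, all TF or cofactor genes of the muscle and mesoderm progenitors of the head. The 21 at *Msc* lie in the gap it shares with *Eya1* and are counted for both genes. In each of these lists, 100% of the genes that border a desert were next to a member. The density was 29 members per Mb for the cartilage list, 19.6 for bone and 27.1 for muscle.

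Of 44 secreted signals and receptors of facial growth, 36 (81.8%) were next to a desert peak, 36 of the 39 that border a desert, at 22.1 members per Mb. *Epha7* had 74, *Efna5*, which encodes an ephrin that binds such receptors, 53, the guidance receptor gene *Robo1* 38 and *Slit2*, which encodes its ligand, 36. Of 57 adhesion and synaptic genes common at deserts, 49 (86.0%) were next to one, but at 6.55 members per Mb, the lowest density of the 8 lists. Within it, *Flrt2* had 110 members, *Cdh11*, a cadherin of mesenchyme and bone cells, 72, *Slitrk1* 44 and *Cdh8* 43. Of 17 blood and endothelium genes, cells that pooled tissue also holds, 5 were next to a member, with 48 at *Cdh5*, in the desert it shares with *Cdh11*, 32 at *Runx1*, and 10 at *Kdr*, at 45.6 members per Mb, the highest density of the 8 lists. Of 13 liver genes, a tissue not sampled, 2 were next to one, *Apob* with 45 and *Cps1* with 3, at 14.8 per Mb. Of the genes that border a desert, 49 of 53 in the adhesion list, 5 of 6 in the blood list and 2 of 2 in the liver list were next to a member. A neighbouring gene is a position, and whether a peak acts on it was not measured.

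**Figure D5:**
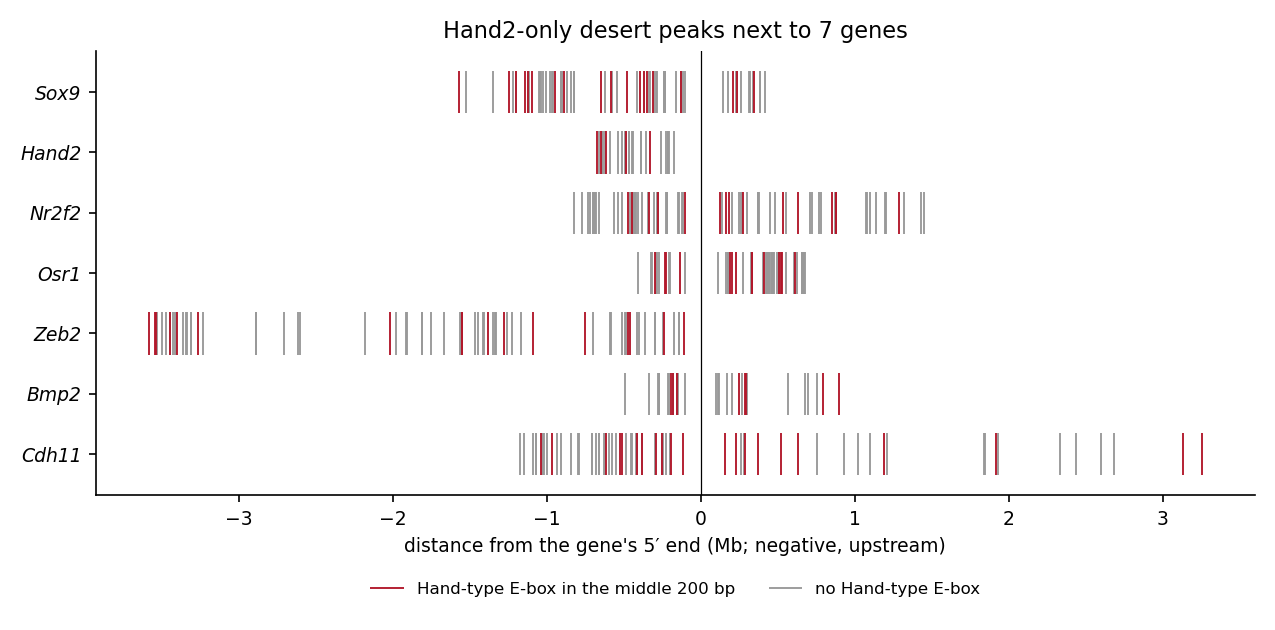
Position of each desert peak (ticks) by distance from the 5′ end of the gene it is next to (horizontal axis, Mb, negative upstream) for 7 genes (rows), red where the middle 200 bp held a Hand-type E-box and grey where it did not. No tick lies within 0.1 Mb because the rule left such peaks out, and the 27 ticks at Hand2 and the 70 at Zeb2 are all upstream, while the 76 at Nr2f2 and the 30 at Bmp2 lie on both sides.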

How the data were processed

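The authors aligned single-end reads to mm10 (GRCm38) using bwa. For each group they deposited 1 list of positions, made with bedtools from peaks found in both replicates. No source used here gives the versions of these tools or of HOMER, also listed by the submitters, or the peak caller. The mock ChIP on wild-type tissue was not analysed here. A label of polyA RNA on these ChIP samples was disregarded.

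Positions were read against GENCODE vM21 (21938 protein-coding genes) and the soft-masked GRCm38 reference. Promoters are midpoints within 1 kb of a 5′ end. Every 6-mer and the listed motifs were searched as exact sequences on both strands in the middle 200 bp. They were compared with Cochran-Mantel-Haenszel tests in 10 GC strata (near-gene peaks) and exact McNemar tests (flanks), and adjusted by Benjamini-Hochberg at 0.05 over 2095 features. Fisher's exact tests of 5 measures were adjusted over 10 tests.

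The members, gene lists and motifs were chosen with earlier results of these data known. Named are the genes of the 10 gaps with the most members and of the 5 densest, up to 4 genes per list, the peaks with the most CAGATG or the most frequent TAATTA arrangement, the peaks at the limit and the farthest, and the 10 features with the smallest p in each direction. Any other gene or motif pair was picked with its values in view, and some named by these rules are not reported here. Alternatives were distance limits of 50 and 200 kb, other Gli3 exclusions, windows, flanks, masking, width, 1 member per gap and no strata. Python 3.11.15, numpy 2.4.6, scipy 1.17.1 and statsmodels 0.14.6 were used.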

Additional observations from a re-analysis of the deposited data

How the results depend on the processing

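No paired analysis was possible because the deposited list merges both replicates, and leaving out a replicate was not run, since all 59583 entries name calls of both.

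The CAGATG odds ratio against near-gene peaks stayed above 1 under all 10 alternatives and lost the call with a limit of 200 kb (1.07, adjusted p = 0.23, n = 7201 desert peaks), 1 peak per desert (1.11, 0.69, n = 1448), the middle 100 bp (1.08, 0.25), windows under 50% masked (1.09, 0.079) and peaks no narrower than the median (1.1, 0.26, n = 5701). In the same comparison the features called higher and lower were 45 and 48 as reported. They were 24 and 22 with 200 kb, 7 and 19 in 100 bp, 2 and 6 in wide peaks, 577 and 694 without GC strata, and 286 (higher) in whole peaks. With a limit of 50 kb 25 were lower, and under 50% masking 26 were higher. With 1 peak per desert (1448 peaks) 0 and 0 were called by the Cochran-Mantel-Haenszel test, with 162 features at an unadjusted p under 0.05. Without strata, the odds ratios of CAGCTG (0.863), CAGCAG (0.912) and AAAAAA (1.15) turned round, each past the threshold. Against flanks, 807 and 609 features were called as reported, with 291 and 236 at 1 peak per desert and 229 and 180 in pairs matched in GC content, both with fewer pairs. The cGBM ratio turned with flanks 2 kb to the left (1.3) or 5 kb to the right (1.09), and passed in none.

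For width, the difference in points was -1.35 and -1.12 with 200 kb, and -5.04 and -5.43 with 1 peak per desert, against near-gene and gene-body peaks. For repeats against near-gene peaks it was -0.448 with 200 kb and -0.224 with 1 peak per desert. For lncRNA genes against near-gene peaks it was 0.191 with 200 kb, -1.2 with 1 peak per desert and -1.11 at lncRNA 5′ ends. The cause of these changes was not tested. GC content and neighbouring peaks kept their direction and their call under every alternative tried.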

Other observations

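Outside the gene lists, the genes next to the most desert peaks were *Adgrl2*, which encodes a latrophilin adhesion receptor, with 127, *Zfp608* with 119, *Epha4* with 118, *Slc4a3* with 99 and *Sox11*, a SoxC gene of neural crest and mesenchyme, with 88. These were chosen after their values were seen. Desert peaks also formed runs in which each midpoint was within 10 kb of the next: 820 runs had 3 or more members, and 128 had 5 or more. The longest had 14 members each, one over 58.9 kb between *Enc1* and *Gm10260* (chr13:97462782-97521714) and one over 63.7 kb between *Six2*, a TF gene of facial mesenchyme, and *Srbd1* (chr17:85858008-85921671). A run of 13 in 39.1 kb lay between *Hrh1* and *Atg7*, and runs of 10 lay between *Hmga2* and *Msrb3* and between *Rps24* and *Zmiz1*. CAGATG was in the middle 200 bp of 5 and 3 of the 14 members of the longest runs.

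Of the 226 gaps with at least 1 Mb of desert outside the Y chromosome, 8 held no member. The longest of them was *Adam6a*–*Zfp386* (chromosome 12, 2.3 Mb of desert), which contains part of the immunoglobulin heavy chain locus. Next came *Pcdh11x*–*Nap1l3* (1.39 Mb) and *4930595M18Rik*–*Dmd* (1.29 Mb) on the X chromosome, and *Ppp6c*–*Lrp1b* (chromosome 2, 1.27 Mb). On the Y chromosome, 3 members lay in 59.6 Mb of desert. Without read-level data, mappability was not measured in any of these gaps.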
